A study of Mus musculus with 6 samples.

Results

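The genes described are 35 nuclear genes of the mouse that encode subunits of respiratory complex I, chosen by name, of 49652 gene rows in each count table. All 35 were found once in the tables and all 35 were among the 18832 genes that passed the filter on low counts, with 889 to 20941 reads per gene and library. The 6 bulk RNA-seq libraries came from muscle stem cells sorted from uninjured hindlimb muscle of mice aged 8 to 10 weeks, by alpha-7 integrin and VCAM and against SCA1, CD45 and CD31. KO libraries (n = 3) are from Cre-positive and WT libraries (n = 3) from Cre-negative mice of the OPA1-Pax7-CreERT2 line. Both groups received tamoxifen by gavage on 5 days and were sampled 3 days later. Cre is driven from Pax7, a gene of muscle stem cells, and no Cre-positive control stands beside the WT group, so the loss of Opa1 and the presence of Cre cannot be told apart. The labels do not say how many animals gave a library, so p-values measure the spread between these libraries.

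Complex I, or NADH:ubiquinone oxidoreductase, is the entry point of electrons from NADH into the respiratory chain and pumps protons across the inner mitochondrial membrane. It has an L shape: a matrix arm with the flavin and iron-sulphur clusters that carry the electrons, and a membrane arm with the proton pumps. Mitochondrial DNA encodes the core of the membrane arm, whereas the core of the matrix arm and all accessory subunits come from nuclear genes. Opa1 encodes the dynamin-like GTPase that fuses the inner membrane and shapes the cristae in which the complex sits. Quiescent muscle stem cells have few mitochondria, and activation of these cells is known to raise mitochondrial content.

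Sequence windows around the transcription start are shown for 2 sets of members. Ndufa6, Ndufa7, Ndufb11 and Ndufs4 are 4 of the 5 members whose KO libraries all lay below all WT libraries, and Ndufs5, Ndufs6 and Ndufb6 varied most between libraries. Each window is 300 bases of GRCm38.p6 around the start that RefSeq gives, 250 before and 50 after, written 5′ to 3′. Capitals mark matches on either strand to the letters of the NRF1 motif (GCGCA, any base, then GCGC), the YY1 motif ANATGGCGG or the ETS motif CCGGAAG, which are searched below.
Ndufa6 (chr15:82354242-82354541, minus strand): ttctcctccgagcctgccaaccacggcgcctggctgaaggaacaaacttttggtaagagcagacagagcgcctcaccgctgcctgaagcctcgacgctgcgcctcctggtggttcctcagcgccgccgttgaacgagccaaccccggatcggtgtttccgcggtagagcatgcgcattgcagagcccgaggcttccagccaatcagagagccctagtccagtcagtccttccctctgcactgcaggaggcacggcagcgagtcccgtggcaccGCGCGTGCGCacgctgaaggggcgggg
Ndufa7 (chr17:33824322-33824621, plus strand): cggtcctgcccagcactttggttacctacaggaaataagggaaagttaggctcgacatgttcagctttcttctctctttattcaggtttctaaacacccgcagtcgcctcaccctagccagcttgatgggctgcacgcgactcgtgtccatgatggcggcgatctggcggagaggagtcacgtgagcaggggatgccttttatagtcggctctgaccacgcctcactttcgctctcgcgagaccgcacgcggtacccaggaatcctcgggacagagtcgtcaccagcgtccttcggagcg
Ndufb11 (chrX:20617570-20617869, minus strand): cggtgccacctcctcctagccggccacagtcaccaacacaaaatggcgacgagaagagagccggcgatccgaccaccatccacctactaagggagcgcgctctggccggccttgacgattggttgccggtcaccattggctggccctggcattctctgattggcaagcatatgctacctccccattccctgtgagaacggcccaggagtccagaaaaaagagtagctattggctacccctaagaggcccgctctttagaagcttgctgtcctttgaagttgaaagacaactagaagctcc
Ndufs4 (chr13:114388045-114388344, minus strand): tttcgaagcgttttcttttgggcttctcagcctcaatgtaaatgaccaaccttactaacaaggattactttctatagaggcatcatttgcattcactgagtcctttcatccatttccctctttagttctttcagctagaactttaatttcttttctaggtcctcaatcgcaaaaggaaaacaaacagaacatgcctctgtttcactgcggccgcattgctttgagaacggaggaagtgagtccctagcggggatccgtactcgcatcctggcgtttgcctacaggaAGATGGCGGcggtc
Ndufs5 (chr4:123718137-123718436, minus strand): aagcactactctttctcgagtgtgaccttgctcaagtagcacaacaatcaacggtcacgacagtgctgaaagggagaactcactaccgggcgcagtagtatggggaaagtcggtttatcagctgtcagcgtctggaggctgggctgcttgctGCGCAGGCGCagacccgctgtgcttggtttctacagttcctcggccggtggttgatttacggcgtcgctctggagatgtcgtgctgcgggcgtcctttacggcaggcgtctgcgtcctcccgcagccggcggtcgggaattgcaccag
Ndufs6 (chr13:73328433-73328732, minus strand): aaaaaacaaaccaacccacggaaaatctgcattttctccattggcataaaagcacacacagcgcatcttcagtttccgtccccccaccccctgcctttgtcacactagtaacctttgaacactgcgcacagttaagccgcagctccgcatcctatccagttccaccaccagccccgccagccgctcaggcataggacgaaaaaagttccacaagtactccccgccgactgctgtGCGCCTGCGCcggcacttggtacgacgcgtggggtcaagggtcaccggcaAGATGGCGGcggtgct
Ndufb6 (chr4:40279372-40279671, minus strand): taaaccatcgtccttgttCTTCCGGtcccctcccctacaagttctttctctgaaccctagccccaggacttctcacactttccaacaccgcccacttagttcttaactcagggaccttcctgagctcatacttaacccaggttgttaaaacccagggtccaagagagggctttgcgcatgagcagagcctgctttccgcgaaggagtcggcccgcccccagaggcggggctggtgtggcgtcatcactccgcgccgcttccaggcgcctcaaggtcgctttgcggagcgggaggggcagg

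NRF1, YY1 and the ETS factor GABPA are known activators of respiratory chain genes. RefSeq windows matched 32 of the 35 members, with 34 windows in all because Ndufa5 and Ndufa7 have 2 each. The NRF1 letters stood in 8 of 34 windows (23.5%), against 4.60% of all 32851 windows and 6.38% of the 21263 windows of protein-coding genes. These 8 windows belong to Ndufa5, Ndufa6, Ndufa8, Ndufa11, Ndufb4, Ndufs5 and Ndufs6. YY1 letters stood in 5 of 34 windows (14.7%), those of Ndufa1, Ndufa9, Ndufs4, Ndufs6 and Ndufs7, against 1.86% of all windows and 2.48% of protein-coding ones. In Ndufs4 and Ndufs6 this match lay at bases 37 to 45 and 35 to 43, counted from 1 at the RefSeq start. That start is 164 and 60 bases from the start of these genes in GENCODE M21, which gives the gene positions below. ETS letters were found in 4 of 34 windows (11.8%) and in 11.6% of protein-coding windows. The SP1 letters GGGCGG were found in 16 of 34 (47.1%) and in 46.2% of protein-coding windows, and TATAAA in 5 of 34 (14.7%) and in 12.6%. The ERR letters TCAAGGTCA were in 0 of 34 windows and in 0.334% of protein-coding ones. The windows printed for Ndufa7 and Ndufb11 hold none of the 3 capitalised motifs. All motifs were searched on both strands, and no test was made on these shares.

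Opa1 itself (chr16:29579334-29654884, GRCm38), the targeted gene, had 17.5, 34.4 and 27.1 CPM in KO libraries 1 to 3, against 68.2, 31.4 and 68.8 CPM in WT libraries 1 to 3. CPM are read counts scaled to the library total with TMM factors, log2 fold changes are KO minus WT, and a gene is called at an edgeR adjusted p under 0.05. Opa1 was not called (log2 fold change -1.09, SE 0.37; exact two-sided permutation test p = 0.2, smallest possible 0.1). The library labelled WT 2 lay within the KO range for Opa1 and the other WT libraries above it. Groups are named by their labels throughout. Total gene counts were 41410136 to 56591699 in KO and 48329905 to 56606886 in WT. Markers of muscle stem cells (10 genes) summed to 7122 to 9369.9 in KO and 7685 to 11382 in WT, in CPM, with Pax7 at 325, 453 and 338 CPM in KO, against 350.3, 398 and 252 CPM in WT. Among other lists, with the 2 most abundant genes named, mature fibre markers (16 genes, Acta1 and Actn3) summed to 368 to 651 in KO and 412 to 806 in WT. Smooth muscle and pericyte markers (10, Acta2 and Notch3) summed to 746 to 1041 in KO and 792 to 1325 in WT. The sum was 1651 to 1767 in KO and 1428 to 1858 in WT for Schwann cells (8, Ncam1 and Pmp22). It was 8.09 to 18.6 in KO and 9.00 to 15.6 in WT for tenocytes (7, Mkx and Thbs4) and 33.0 to 257 in KO and 99.1 to 423 in WT for red cells (6, Hbb-bs and Hba-a1). Of the cells that the sort against SCA1, CD31 and CD45 would remove, fibro-adipogenic markers (10, Gsn and Col3a1) summed to 6426 to 6877 in KO and 5123 to 6878 in WT, the highest of these 3 lists. The fibro-adipogenic genes ranged from 0.218 to 1495 CPM per kb of transcript, with a median of 22.5, so the sum does not stand for all 10 alike. The same holds for the Schwann list (0.378 to 320, median 5.06) and the smooth muscle and pericyte list (0.667 to 253, median 6.80). Endothelial markers (10, Tek and Pecam1) summed to 108 to 183 in KO and 109 to 195 in WT and leukocyte markers (10, Cd68 and Lyz2) to 7.21 to 22.1 in KO and 8.85 to 18.4 in WT. The ranges of the groups overlapped for each list. Ptprc, the leukocyte gene of CD45, had 0, 0.651 and 0.528 CPM in KO, against 0, 0 and 0.337 CPM in WT. Whether other cell types were present, and had a part in the results below, was not tested.

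Transcripts of the complex I subunits were slightly lower in KO than in WT on average, but no member passed the test and the KO libraries did not behave alike. The 35 genes together took 6044, 5069 and 5087 summed CPM in KO libraries 1 to 3, against 5889.8, 5569 and 5802 summed CPM in WT libraries 1 to 3. KO library 1 had the highest sum of the 6 and KO libraries 2 and 3 the lowest, with the WT libraries between them. The group means were 5399.7 ± 558 in KO and 5754 ± 166 in WT (SD, n = 3 each), or 93.8% of WT, a gap smaller than the spread within KO. In bulk libraries, fewer cells of a type and less RNA per cell cannot be told apart.

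**Figure D1:**
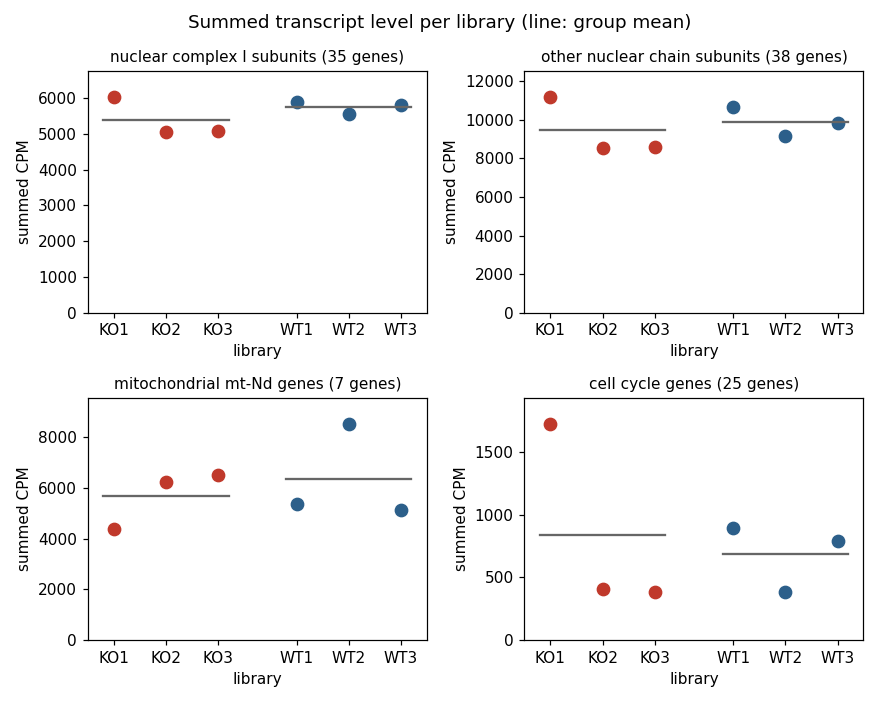
Summed CPM (vertical axes, from 0) per library (horizontal axes; red KO, blue WT; line, mean of 3 libraries) for the 35 subunit genes, 38 other nuclear subunits of the respiratory chain, 7 mitochondrial mt-Nd genes and 25 cell cycle genes. Subunit sums were 6044, 5069 and 5087 in KO and 5889.8, 5569 and 5802 in WT, with KO1 the highest library in this panel and the lowest in the mt-Nd panel.

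In edgeR's quasi-likelihood test 0 of the 35 members were called at an adjusted p under 0.05, against 0% of all 18832 genes, and 0 had an unadjusted p under 0.05, against 2.09% of all genes. DESeq2 and limma voom each called 0 members too, while over all genes DESeq2 called 20 and limma voom 0. Fitted log2 fold changes were below 0 for 31 of 35 members (88.6%), against 49% of all genes tested. They ran from -0.21 to 0.11 with a median of -0.10, while the median over all genes was 0.01. Standard errors of 0.11 to 0.28 exceeded most of these changes, and the 95% intervals, which together spanned -0.86 to 0.47, all held 0. CPM of all 3 KO libraries lay below all 3 WT libraries for 5 members (14.3%), against 3.12% of all genes, and above them for 0 members, against 3.43%.

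**Figure D2:**
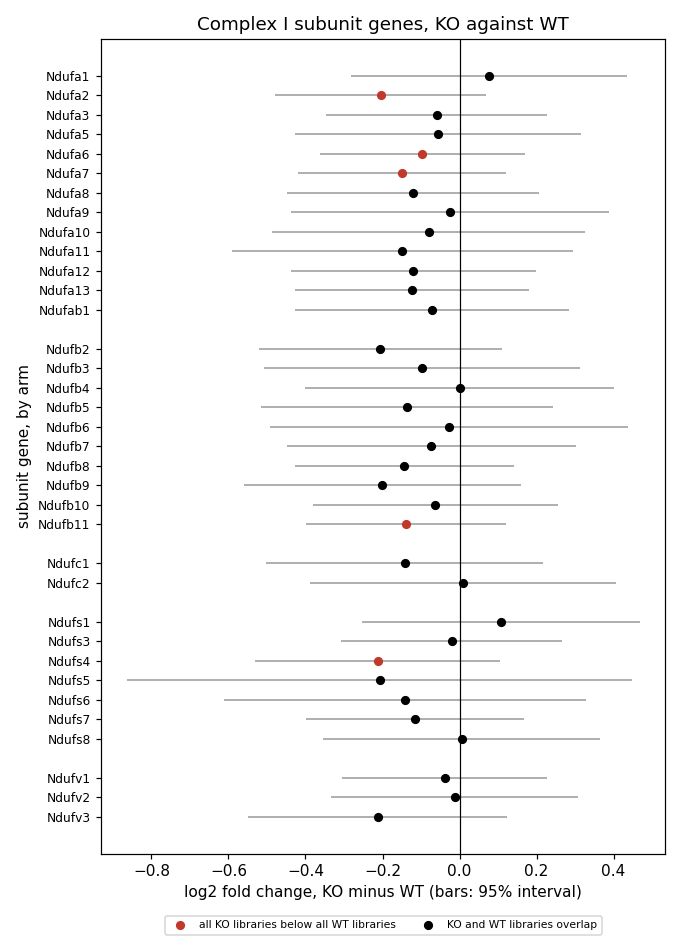
Fitted log2 fold change, KO minus WT (horizontal axis), of the 35 subunit genes grouped by arm (vertical axis), with 95% intervals; red points mark the 5 genes whose KO libraries all lay below all WT libraries. Points ran from -0.21 to 0.11, and the interval of every gene held 0.

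The 5 members with separate groups were Ndufa2, Ndufa6, Ndufa7, Ndufs4 and Ndufb11. Ndufa2 (chr18:36742332-36744557, minus strand, GRCm38), an accessory subunit of the matrix arm near the NADH-oxidising end, had 185, 164 and 173 CPM in KO libraries 1 to 3, against 200.1, 191 and 211 CPM in WT libraries 1 to 3. The highest KO library had 185 CPM and the lowest WT library 191 CPM, and the log2 fold change was -0.21 (SE 0.12, edgeR adjusted p = 0.999976). Ndufs4 (chr13:114287795-114388258, minus strand), whose loss in mice gives a model of Leigh syndrome, had 55.2, 49.2 and 54.7 CPM in KO, against 57.5, 65.3 and 61.5 CPM in WT. Here the library labelled WT 2 was the highest of the 6, and the log2 fold change was -0.21 (SE 0.13). Ndufa6 (chr15:82350140-82354322, minus strand), an LYR-motif subunit that holds an acyl carrier protein in the matrix arm, had 208, 215 and 212 CPM in KO, against 217, 221 and 242 CPM in WT. Ndufa7 (chr17:33824572-33838317, plus strand), another accessory subunit of the matrix arm, had 208, 196 and 218 CPM in KO, against 219, 229 and 241 CPM in WT. Ndufb11 (chrX:20615326-20617619, minus strand), an X-linked subunit of the membrane arm, had 199, 199.6 and 204 CPM in KO, against 212, 219 and 232 CPM in WT. In these 3 the gap between the highest KO and the lowest WT library was small: 215 against 217 CPM for Ndufa6, 218 against 219 for Ndufa7 and 204 against 212 for Ndufb11. KO libraries were close to each other for Ndufa6 and Ndufb11, with a coefficient of variation of 1.64% and 1.47% in KO, against 6.07% and 4.53% in WT. For Ndufa6, Ndufa7 and Ndufb11, unlike most members, KO library 1 was not the highest of the KO libraries.

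The size of the group difference depended on KO library 1, and the difference was larger without it. This library was the highest of the 6 libraries for 19 of 35 members (54.3%), against 18% of all genes tested, while KO library 2 or 3 was the lowest for 29 members. Of all genes, KO library 2 was the lowest for 17.7% and KO library 3 for 14.1%. KO library 1 exceeded both other KO libraries in 29 members (82.9%), against 36% of all genes. Without KO library 1, all 35 log2 fold changes were below 0, against 51% of all genes, the median was -0.20 and 22 members (62.9%) lay below all WT libraries, against 10.2% of all genes. Even then 0 members were called at an adjusted p under 0.05, and only Ndufs6 had an unadjusted p under 0.05, against 4.1% of all genes. KO library 1 lay above all WT libraries and both other KO libraries below all of them in 11 members (31.4%), against 3.40% of all genes. Without the library labelled WT 2, 31 of 35 log2 fold changes were below 0, against 48.1% of all genes, at a median of -0.12. In that setting 9 of 35 members lay below the WT libraries kept, against 7.18% of all genes. The median moved to -0.06 without KO library 2, KO library 3 or WT library 1. Negative members then numbered 29, 26 and 26 of 35, against 51.1%, 49.2% and 48.3% of all genes. Members below the WT libraries kept numbered 7, 5 and 7 of 35, against 6.05%, 7.47% and 8.56% of all genes. Without WT library 3, 30 of 35 members were negative, against 49.1% of all genes, at a median of -0.10. Below the WT libraries kept were 7 of 35, against 6.86% of all genes.

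**Figure D3:**
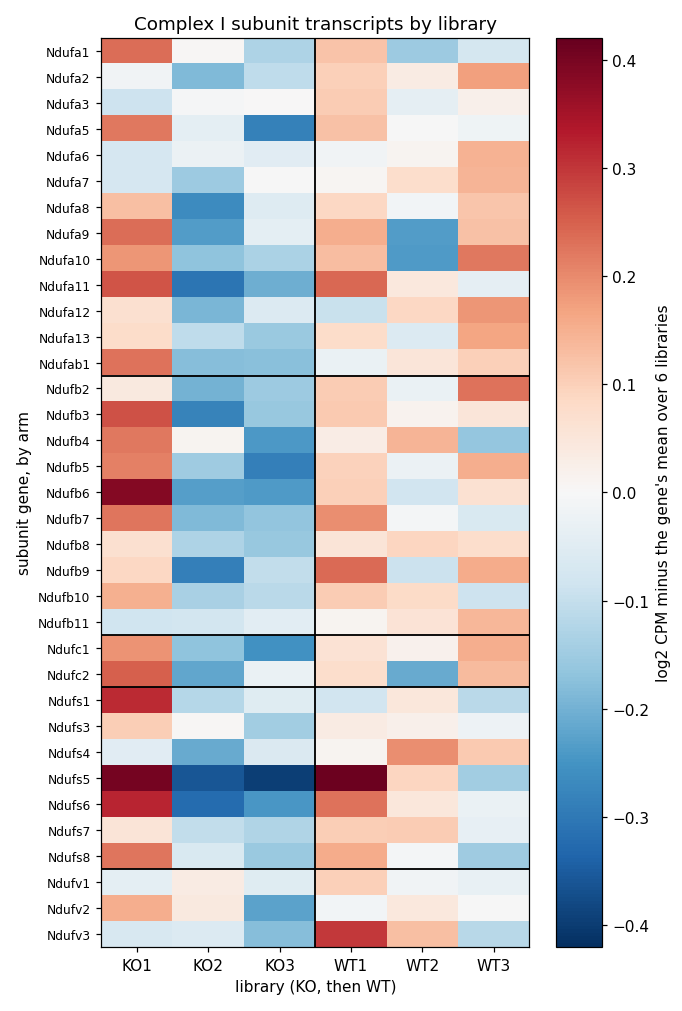
Log2 CPM of each subunit gene (rows, by arm) in each library (columns, KO left of WT) minus the mean of that gene over the 6 libraries; red is above and blue below the gene's mean. KO1 is red for 27 of 35 genes, KO2 blue for 30 and KO3 blue for 34.

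Other measurements of the libraries stood beside the subunit sums as follows. Cell cycle genes (25 of 25 tested, 0 called, against 0% of all genes) had 1723, 408 and 379 summed CPM in KO libraries 1 to 3, against 893, 379 and 788 summed CPM in WT libraries 1 to 3. KO library 1 was again the highest, followed by WT libraries 1 and 3. Mki67, a marker of cycling cells, had 78.6, 3.18 and 0.652 CPM in KO, against 34.3, 1.59 and 38.1 CPM in WT. The cell cycle genes with the smallest p, Ccne1 and Mcm4, had log2 fold changes of 1.90 (SE 1.56) and 0.39 (SE 0.32). KO libraries 2 and 3 and the library labelled WT 2 had the lowest cell cycle sums. At a cell cycle sum of 379 in each, KO library 3 held 5087 CPM of subunits and the library labelled WT 2 held 5569 CPM. This sets a single library of each group side by side, so nothing about the groups follows from it. Reads without a feature made up 11.6%, 15.5% and 17.0% in KO libraries 1 to 3 and 11.2%, 16.3% and 14.6% in WT libraries 1 to 3, lowest in KO library 1 and WT library 1, the libraries with the highest subunit sums. Mature fibre markers summed to 368, 389 and 651 CPM in KO libraries 1 to 3 and to 464, 806 and 412 CPM in WT libraries 1 to 3, highest in the library labelled WT 2 and lowest in KO libraries 1 and 2, which had the highest and the lowest subunit sums. The part of each of these in the subunit levels was not tested.

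The core of the matrix arm carries the electrons from NADH to ubiquinone. Its 6 members gave 1186, 1055 and 984 summed CPM in KO libraries 1 to 3, against 1121, 1101 and 1034 summed CPM in WT libraries 1 to 3, and KO stood at 99.0% of WT. Their median log2 fold change was -0.02, with 4 of 6 below 0. Ndufv1, which binds NADH and the flavin, had 183, 193 and 182 CPM in KO, against 202, 187 and 184 CPM in WT, and its highest library exceeded its lowest by only 1.11-fold, the narrowest range of the 35. Ndufv2, its iron-sulphur partner, had 259.5, 241 and 199.9 CPM in KO, against 232, 241 and 234 CPM in WT. In WT it varied by 2.01% and in KO by 13.1%, with KO library 3 the lowest. Ndufs1, the largest subunit and the carrier of further iron-sulphur clusters, had 194, 144 and 151 CPM in KO, against 148, 161 and 144 CPM in WT. It had the highest log2 fold change of all members (0.11, SE 0.15), which rested on KO library 1 and was -0.04 without it. Ndufs3, a core subunit of the part that leads to ubiquinone, had 116, 108 and 97.6 CPM in KO, against 111, 109.6 and 106 CPM in WT. Ndufs7, which passes electrons to ubiquinone, had 187, 168 and 166 CPM in KO, against 194, 194 and 176 CPM in WT. Ndufs8, which carries the clusters before it, had 245, 201 and 189 CPM in KO, against 234, 209 and 189 CPM in WT. For Ndufs7 the WT libraries 1 and 2 were the highest and KO libraries 2 and 3 the lowest, and Ndufs8 averaged 212 ± 29.9 CPM in KO and 211 ± 22.6 CPM in WT (SD, n = 3 each).

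Accessory subunits surround the core and stabilise it. All 10 of the matrix arm had a log2 fold change below 0 (median -0.13), against 49% of all genes, and 4 of the 10 had KO libraries below all WT libraries, against 3.12% of all genes. With a library left out, 9 or 10 of these had a log2 fold change below 0. Together they gave 1639, 1410.2 and 1453 summed CPM in KO libraries 1 to 3, against 1635, 1601 and 1674 summed CPM in WT libraries 1 to 3. Apart from Ndufa2, Ndufa6, Ndufa7 and Ndufs4, described above, the lowest was Ndufv3, a matrix subunit with alternative splice forms, with 141, 142 and 131 CPM in KO, against 182, 162 and 137 CPM in WT (log2 fold change -0.21, SE 0.14). For Ndufv3 the KO libraries lay close together and WT library 3 fell within their range. Ndufa12, a relative of the assembly factor Ndufaf2, had 203, 169 and 186 CPM in KO, against 181, 206 and 219.7 CPM in WT. Ndufs6, a zinc-binding subunit near Ndufa12, had 116, 74.6 and 78.7 CPM in KO, against 109, 96.5 and 91.7 CPM in WT, a clear split of KO library 1 from the other KO libraries. Ndufa9, a dehydrogenase-like subunit next to the ubiquinone channel, had 174, 125 and 143 CPM in KO, against 164, 125 and 161 CPM in WT, with the library labelled WT 2 as low as KO library 2. Ndufab1, the mitochondrial acyl carrier protein that the complex holds in both arms, had 216, 163 and 163 CPM in KO, against 181, 191 and 198 CPM in WT. Ndufa5, a small subunit of this arm, had 133, 111 and 93.7 CPM in KO, against 124, 114 and 113 CPM in WT. In both, KO library 1 was the highest and the other KO libraries lay below every WT library.

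The 19 accessory members of the membrane arm gave 3219, 2604 and 2649 summed CPM in KO libraries 1 to 3, against 3134, 2867 and 3094 summed CPM in WT libraries 1 to 3, with 17 log2 fold changes below 0, against 49% of all genes, and a median of -0.12. Among the Ndufa genes here, Ndufa1, an X-linked subunit, had 92.1, 78.6 and 71.7 CPM in KO, against 85.1, 70.5 and 74.4 CPM in WT, 1 of 4 members with a positive log2 fold change (0.08, SE 0.15). Ndufa3 varied little, with 69.8, 74.0 and 74.3 CPM in KO, against 79.9, 72.2 and 75.2 CPM in WT. Ndufa13, also known as GRIM-19, had 313, 275 and 266 CPM in KO, against 313, 285 and 333 CPM in WT. Here KO library 1 equalled WT library 1, and WT library 3 was the highest. Ndufa10, a kinase-like subunit, had 206, 161 and 165 CPM in KO, against 198, 154 and 211 CPM in WT. For Ndufa10 the library labelled WT 2 was the lowest of the 6. Ndufa8, a cysteine-rich protein of the intermembrane space, had 152, 116 and 134 CPM in KO, against 148, 138 and 151 CPM in WT. Ndufa11, a membrane protein of this arm, had 91.7, 61.8 and 66.3 CPM in KO, against 90.3, 78.8 and 74.4 CPM in WT. KO library 1 was the highest for both Ndufa8 and Ndufa11, and KO library 2 the lowest.

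All 10 Ndufb genes had a log2 fold change below 0, Ndufb4 only just (-2.9e-05), against 49% of all genes. With a library left out, 7 to 10 of them were below 0, the fewest without WT library 1. Ndufb2, a small membrane subunit, was the lowest of the Ndufb genes (log2 fold change -0.21, SE 0.13), with 121, 103 and 106 CPM in KO, against 127, 116 and 138 CPM in WT. Only KO library 1 lay within the WT range. Ndufb9, an LYR-motif subunit, had 202, 156 and 178 CPM in KO, against 225, 179 and 212 CPM in WT. Ndufb8, often used as an antibody marker of assembled complex I, had 373, 326 and 319 CPM in KO, against 370.2, 379 and 375 CPM in WT. The WT libraries of Ndufb8 varied by 1.24%, the least of the 35, and KO library 1 lay among them. Ndufb4 averaged 61.0 ± 9.69 CPM in KO and 61.0 ± 6.42 CPM in WT (SD, n = 3 each), with single libraries at 70.7, 61.1 and 51.3 CPM in KO, against 62.0, 66.9 and 54.2 CPM in WT. Ndufb6 had the widest range among the Ndufb genes, 1.54-fold, with 154, 100.4 and 99.8 CPM in KO, against 126, 111 and 123 CPM in WT. The same order, KO library 1 above all WT libraries and KO libraries 2 and 3 below them, held for Ndufb3, Ndufb5, Ndufb7 and Ndufb10. Ndufb3 had 82.9, 56.7 and 61.8 CPM in KO, against 74.4, 69.7 and 71.5 CPM in WT. Ndufb5 had 142, 111 and 101 CPM in KO, against 131, 121 and 136 CPM in WT. Ndufb7 and Ndufb10 are cysteine-rich proteins of the intermembrane space. Ndufb7 had 194, 146 and 148 CPM in KO, against 190.2, 165 and 159 CPM in WT. Ndufb10 had 289.6, 238 and 242 CPM in KO, against 281, 276 and 246 CPM in WT.

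Ndufs5, of the same cysteine-rich kind, had the widest range of all members, 1.75-fold, and the largest standard error. It had 36.4, 21.4 and 20.9 CPM in KO, against 36.7, 29.3 and 24.9 CPM in WT, with KO library 1 and WT library 1 alike and the other KO libraries below every WT library (log2 fold change -0.21, SE 0.28). The Ndufc genes encode small subunits of the membrane arm. Ndufc1 had 151, 118 and 111 CPM in KO, against 138, 134 and 147 CPM in WT. Ndufc2 had 278, 200.4 and 229 CPM in KO, against 246, 202 and 256 CPM in WT. Their log2 fold changes were -0.14 (SE 0.15) and 0.01 (SE 0.17), and for Ndufc2 the library labelled WT 2 was nearly as low as KO library 2.

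The members varied more between KO than between WT libraries. Their median coefficient of variation was 13.1% in KO and 6.38% in WT. Over the 6138 genes with a mean level between the lowest and the highest member (28.3 to 357 CPM), it was 14.5% in KO and 15.6% in WT. In WT the members varied less than these genes, and in KO about as much. By arm, KO library 1 was the highest library for 6 of 13 Ndufa, 6 of 10 Ndufb, 2 of 2 Ndufc, 4 of 7 Ndufs and 1 of 3 Ndufv genes. Group means in KO were 86.3% of WT for Ndufv3, the lowest share, to 108% for Ndufs1, the highest.

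Levels between genes were compared per kb of the principal transcript. Members ranged from 27.1 CPM per kb for Ndufb2 to 525 for Ndufb8, around a median of 144. Next to Ndufb8 came Ndufa7 (414) and Ndufa6 (372), and next to Ndufb2 came Ndufs4 (33.7) and Ndufs5 (41.6), all in CPM per kb over all 6 libraries. Ndufb8 had 499 in KO and 551 in WT, and Ndufb2 25.2 in KO and 29.0 in WT. Per kb of all annotated exons, Ndufb8 stood at 114 and Ndufa2 (328) and Ndufc2 (312) led, so the order of the top genes depends on the transcript model. The low end kept Ndufb2 (21.1) and Ndufs4 (21.1), with Ndufs1 (19.4) below them. The place of Ndufb2 rests on its annotated length in both measures. Its principal transcript, the longest of the members, has 4371 bases and its exons 5628, at mean levels of 110 CPM in KO and 127 CPM in WT. The transcripts are short: the median principal transcript of the members has 908 bases, against 2997 for the 13513 tested genes that have one.

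**Figure D4:**
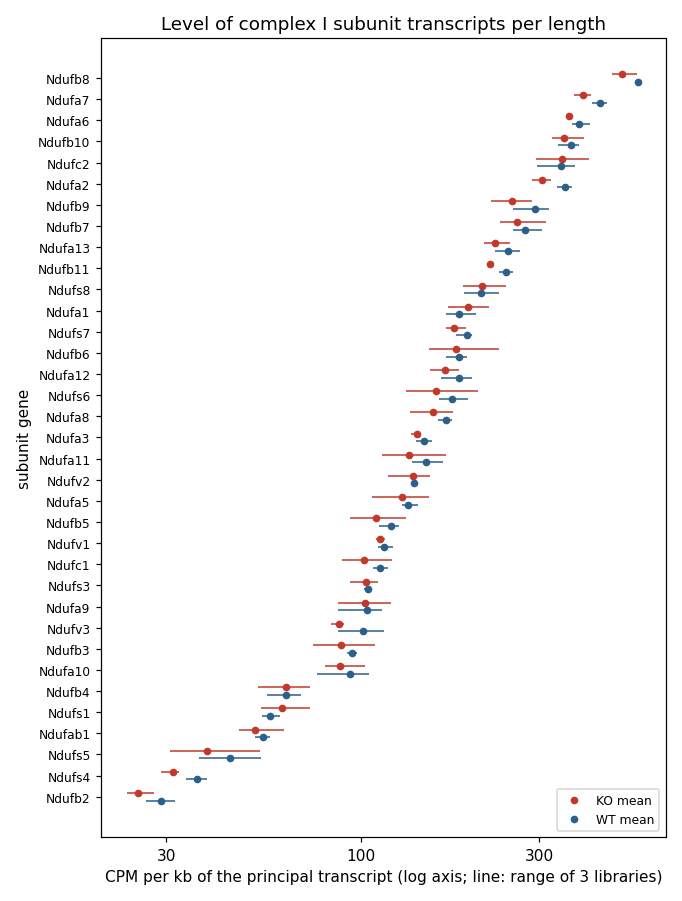
CPM per kb of the principal transcript (horizontal log axis) of the 35 subunit genes (vertical axis, ordered by level), KO in red above WT in blue, points for means and lines for the range of 3 libraries. Levels ran from 27.1 for Ndufb2 to 525 for Ndufb8 over all libraries, and the KO mean was 86.3% to 108% of the WT mean.

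The 35 genes lie on 15 chromosomes, with 5 on chromosome 17 (Ndufa7, Ndufa11, Ndufb10, Ndufv2 and Ndufv3) and Ndufa1 and Ndufb11 on X. In GENCODE M21, 8 of 35 (22.9%) start head to head with another protein-coding gene within 1000 bases, against 6.77% of 22028 protein-coding genes. Ndufa7 starts 10 bases from Rps28, a ribosomal protein gene, and Ndufa2 starts 99 bases from Ik, a splicing factor gene. The log2 fold changes of these neighbours were 0.14 for Rps28 and -0.12 for Ik, beside -0.15 for Ndufa7 and -0.21 for Ndufa2. Another annotated gene overlaps 18 members, on the opposite strand for 14 of them, among them Ndufa2 and Ndufb11. Annotated copies of members were low in KO and WT alike: Ndufb4c had 3.73, 2.82 and 2.57 CPM in KO, against 3.71, 3.09 and 3.53 CPM in WT. Ndufab1-ps had 1.14, 0.820 and 1.66 CPM in KO, against 1.26, 1.52 and 1.65 CPM in WT. Ndufs6b had 0.803, 0.410 and 1.00 CPM in KO, against 0.707, 0.981 and 1.05 CPM in WT. Ndufa11b had under 0.2 CPM in each KO and WT library. Since reads that align more than once were not counted, the values of Ndufb4, Ndufab1, Ndufs6 and Ndufa11 are uncertain.

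The mitochondrial genome encodes the 7 core subunits of the membrane arm. Their mt-Nd genes gave 4359, 6224 and 6497 summed CPM in KO libraries 1 to 3, against 5378, 8525 and 5126 summed CPM in WT libraries 1 to 3. KO library 1, the highest for the nuclear subunits, was the lowest here, and the library labelled WT 2 was the highest. The ratio of nuclear to mt-Nd summed CPM was 1.39, 0.814 and 0.783 in KO libraries 1 to 3, against 1.10, 0.653 and 1.13 in WT libraries 1 to 3, or 0.995 ± 0.340 in KO and 0.960 ± 0.266 in WT (SD, n = 3 each), a difference smaller than the spread. Of the 6 mt-Nd genes tested, 5 had a negative log2 fold change, against 49% of all genes, and 0 were called, against 0%. The changes were -0.14 for mt-Nd1, -0.06 for mt-Nd2, 0.11 for mt-Nd3, -0.21 for mt-Nd4, -0.17 for mt-Nd5 and -0.29 for mt-Nd6, with standard errors of 0.24 to 0.31. mt-Nd4l had under 0.4 CPM in every library and was not tested.

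Nuclear subunits of the other respiratory complexes and of ATP synthase gave 11207, 8569 and 8589 summed CPM in KO libraries 1 to 3, against 10688, 9144 and 9818 summed CPM in WT libraries 1 to 3. KO library 1 had the highest sum here too, and KO libraries 2 and 3 the lowest. Of 38, 30 had a negative log2 fold change (median -0.06), against 49% of all genes. Of the same 38, 0 were called, against 0% of all genes, and 0 had separate groups in either direction, against 6.55%. Cox4i1, a regulatory subunit of complex IV, had -0.15 (SE 0.12) and Uqcrh, the hinge protein of complex III, -0.19 (SE 0.15). Complex I genes took 35.03%, 37.2% and 37.2% of the nuclear chain sum in KO libraries 1 to 3, against 35.5%, 37.9% and 37.1% in WT libraries 1 to 3. Ndufa4, named for complex I but now placed in complex IV, had 250.2, 168 and 159 CPM in KO, against 219, 179.8 and 192 CPM in WT. Ndufb1-ps had 50.4, 28.1 and 27.2 CPM in KO, against 40.6, 28.7 and 34.1 CPM in WT, with KO library 1 the highest, and the hypoxia-linked relative Ndufa4l2 was low, at 0.823, 2.48 and 8.54 CPM in KO, against 4.12, 5.74 and 1.78 CPM in WT.

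Assembly factors, which build the complex without staying in it, were not called either. Of 18 tested, 13 had a negative log2 fold change (median -0.07), against 49% of all genes, and 0 were called, against 0%. An unadjusted p under 0.05 was found for 2 of them, 1 in each direction, against 1% of all genes lower and 1.08% higher. Tmem186, a factor of the membrane arm intermediates, had 45.0, 35.5 and 30.5 CPM in KO, against 51.2, 52.7 and 47.3 CPM in WT (log2 fold change -0.45, SE 0.18, unadjusted p = 0.0454). Dmac2, a factor of the distal membrane arm, went the other way with 32.9, 41.4 and 42.7 CPM in KO, against 31.9, 22.6 and 22.3 CPM in WT (0.61, SE 0.21, unadjusted p = 0.0237). In both, KO and WT libraries did not overlap, as was the case for Tmem70, another assembly factor, at 87.5, 87.3 and 87.3 CPM in KO, against 73.8, 79.6 and 84.1 CPM in WT. Over all genes 6.55% had separate groups in either direction. Regulators of respiratory chain genes (10 tested, 3 negative and 7 positive, median 0.12) had 0 calls. Of all genes, 49% were negative and 0% called. Yy1 had 47.3, 51.6 and 42.4 CPM in KO, against 29.5, 41.5 and 39.2 CPM in WT, with separate groups (0.36, SE 0.18), and Sp1 had 91.8, 93.1 and 103 CPM in KO, against 77.9, 95.9 and 82.2 CPM in WT. Nrf1 and Gabpa, whose motif letters are searched above, had log2 fold changes of 0.17 (SE 0.17) and 0.08 (SE 0.12), and the coactivator gene Ppargc1a -0.23 (SE 0.43).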

How the data were processed

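Bulk RNA-seq of 3 KO and 3 WT libraries was used. The authors deposited a table of unnormalized counts of reads per gene for each library. HTSeq 0.6.1p2, STAR 2.6.0c, Trim Galore 0.5.0 and cutadapt 2.5 are listed in the submitters' processing notes, with GRCm38 as the build. Which annotation release and which strand setting were used is not given in the sources used here. Without the strand, reads of a gene and of an overlapping gene on the other strand cannot be told apart. The rows in which HTSeq sums unassigned reads did not enter library sizes: reads without a feature were 11.2% to 17.0%, ambiguous reads 1.21% to 1.42% and reads aligned more than once 14.8% to 24.6% of all reads listed. With 889 or more reads per member and library, the spread between libraries and not counting error limits precision.

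KO was compared with WT in R 4.3.3 by edgeR 4.0.16 (quasi-likelihood test, robust estimation, TMM scaling, the package's filter on low counts, prior count 0.125), with Benjamini-Hochberg adjustment over all 18832 genes kept and calls at 0.05. Levels are TMM-scaled CPM. Standard errors were taken from the fold change and the F statistic (its square root is the ratio of change to error). DESeq2 1.42.0, limma 3.58.1 (voom), other scalings, no filter, the replicate number as a block, protein-coding nuclear genes only and each library left out were the alternatives. Positions, neighbours and lengths are from GENCODE M21 (GRCm38; 49399 of 49652 IDs matched), and the principal transcript is the one with the best APPRIS tag, a choice made after levels per kb of all exons were seen. Figures used Python 3.11.15 and matplotlib 3.10.9. The fit was tested on simulated counts of 18832 genes. With the spread between libraries estimated from these data, it called 7% of 100 genes with a true 2-fold change. It called 36% of 100 with a 4-fold change, with 1 false call. With a fixed spread it called 42% and 98%, with 10 false calls. A gene that was not called can therefore still differ between the groups. The changed genes were drawn at random from all 18832, whose median coefficient of variation was 25.6% in KO and 27.1% in WT. For the members it was 13.1% and 6.38%, so the shares called in the simulation do not describe the members. The 95% intervals of the members together spanned -0.86 to 0.47.

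The members and all lists were chosen with earlier results of these data known, and no list was tested as a set. All members are named. The rule gives values in every library for Opa1, core subunits, the lowest and highest fold change of each arm, members with separate groups, the highest and lowest levels per kb and members whose highest library is not the most common one. Values of the other members were added after they were seen. Of other lists, the 2 members with the smallest p or, for markers, the highest level are named; Tmem70, Nrf1, Gabpa, Ppargc1a, Rps28, Ik, Ptprc, Pax7 and copies of members were added after their values were seen. Of the further Nduf genes listed, 1 is not reported here.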

Additional observations from a re-analysis of the deposited data

How the results depend on the processing

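No member was called under any alternative run, and edgeR called 0 genes under each of its alternatives, with 245 to 864 at an unadjusted p under 0.05. Over all genes DESeq2 called 20 (11 higher and 9 lower in KO; the cause was not tested) and had 518 at an unadjusted p under 0.05, and limma voom called 0 and had 468. With a library left out, the median log2 fold change of the members ranged from -0.20 to -0.06 and the number of negative members from 26 to 35. Under the other alternatives the number was 31 to 33. Changes near 0 turned sign. Ndufs8 went to -0.0005 with RLE scaling and in DESeq2, to -0.0153 with upper quartile scaling, to -0.0194 without the filter and to -0.0051 for protein-coding nuclear genes. Ndufc2 went to -0.0136, -0.0178 and -0.0049 in the last 3 of these. With a library left out, the sign of 13 members turned, with these ranges of the log2 fold change: Ndufa1 -0.0292 to 0.16, Ndufa10 -0.21 to 0.0122, Ndufa5 -0.19 to 0.0585, Ndufa9 -0.16 to 0.0624, Ndufb4 -0.12 to 0.11, Ndufb6 -0.26 to 0.0795, Ndufb7 -0.22 to 0.0090, Ndufc2 -0.13 to 0.0948, Ndufs1 -0.0379 to 0.17, Ndufs3 -0.0804 to 0.0414, Ndufs8 -0.11 to 0.0894, Ndufv1 -0.0813 to 0.0041, Ndufv2 -0.0961 to 0.0857. The cause was not tested. Replicate numbers share no stated origin: deviations of same-numbered KO and WT libraries correlated across genes at 0.245, 0.105 and -0.072. Pairs with different numbers ran from -0.285 (KO library 1 with WT library 2) to 0.207 (KO library 3 with WT library 2). With the replicate block, 0 genes were called, 31 members were negative and their median was -0.12.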
